A study of Mus musculus with 6 samples.

Results

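The transcripts described here are 10 genes that mark neutrophils in the mouse: S100a8, S100a9, Cd177, Retnlg, Cxcr2, Ngp, Camp, Ltf, Lcn2 and Ly6g. They were taken by symbol from the deposited gene table, and all 10 were among its 22377 genes. RNA was sequenced from subcutaneous tumors of LLC (Lewis lung carcinoma) cells, in 3 libraries labelled wt and 3 labelled knockdown. The study's methods describe CD45+ CD11b+ F4/80+ macrophages that were sorted from the tumors, with Npm1+/+ and Npm1+/- animals as hosts that carry both copies or a single copy of the nucleophosmin gene in every cell of the host. The sample labels instead name tumor tissue as the source, give neither the genotype nor an age, sex or strain, and describe another RNA extraction and a small RNA library. These accounts were not reconciled here.

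The comparison asks whether transcripts of a cell type outside the stated sort differed between the groups. Neutrophils load their granules in order as they mature in the bone marrow: proteases and myeloperoxidase go into primary granules in promyelocytes, lactoferrin, lipocalin 2, cathelicidin and NGP into secondary granules in later precursors, and gelatinase into tertiary granules after that. Mature cells then hold abundant S100A8 and S100A9 protein in the cytosol and carry CXCR2, CD177 and, in the mouse, Ly6G on the surface. Neutrophils share CD45 and CD11b with macrophages but carry little or no F4/80, and monocytes also express S100a8 and S100a9. In bulk RNA, fewer cells of a type and less RNA per cell cannot be told apart.

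The upstream sequences of 6 members are shown because these genes fell into 3 patterns described next. S100a8 and S100a9 kept a nearly fixed ratio in all 6 libraries. Ngp, Camp and Ltf each stood far higher in wt library 3 than in any other library. S100a8 and S100a9 were also highest there, but by a smaller margin. Cd177 had the smallest p of the members tested. Each line holds the 250 bases before the annotated start, 5′ to 3′ on the gene's strand (RefSeq, GRCm38.p6), and capitals mark the letters TTNNGNAA on either strand, a C/EBP-type motif. C/EBP factors act in granulocyte differentiation.
S100a8: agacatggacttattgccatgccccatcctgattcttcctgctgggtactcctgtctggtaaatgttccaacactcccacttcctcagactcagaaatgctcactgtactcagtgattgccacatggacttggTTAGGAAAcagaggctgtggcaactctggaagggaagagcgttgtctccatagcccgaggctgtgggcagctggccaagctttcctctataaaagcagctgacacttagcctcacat
S100a9: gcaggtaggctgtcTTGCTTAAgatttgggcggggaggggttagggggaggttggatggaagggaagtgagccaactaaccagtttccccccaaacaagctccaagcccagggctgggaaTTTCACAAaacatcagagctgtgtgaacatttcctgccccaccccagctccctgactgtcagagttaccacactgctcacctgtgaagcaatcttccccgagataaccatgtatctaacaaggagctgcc
Ngp: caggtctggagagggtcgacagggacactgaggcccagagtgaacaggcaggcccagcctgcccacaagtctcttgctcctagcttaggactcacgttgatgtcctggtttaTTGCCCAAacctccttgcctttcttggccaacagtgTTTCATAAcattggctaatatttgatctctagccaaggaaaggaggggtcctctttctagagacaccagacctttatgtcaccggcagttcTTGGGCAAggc
Camp: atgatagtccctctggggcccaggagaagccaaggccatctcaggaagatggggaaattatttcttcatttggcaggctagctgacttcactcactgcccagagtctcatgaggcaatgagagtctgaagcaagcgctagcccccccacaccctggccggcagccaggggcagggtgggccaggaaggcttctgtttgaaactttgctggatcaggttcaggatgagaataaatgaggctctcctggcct
Ltf: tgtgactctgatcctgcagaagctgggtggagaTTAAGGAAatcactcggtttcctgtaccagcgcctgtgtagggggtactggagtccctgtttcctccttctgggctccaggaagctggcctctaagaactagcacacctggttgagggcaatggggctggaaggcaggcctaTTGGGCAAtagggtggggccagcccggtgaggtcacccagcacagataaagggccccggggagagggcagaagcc
Cd177: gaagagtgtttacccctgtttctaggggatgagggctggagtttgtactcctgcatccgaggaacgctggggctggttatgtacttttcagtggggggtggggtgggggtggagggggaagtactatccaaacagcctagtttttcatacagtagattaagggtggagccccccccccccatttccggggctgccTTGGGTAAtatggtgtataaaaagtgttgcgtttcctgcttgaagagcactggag

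The S100a8 and S100a9 stretches lie at chr3:90668821-90669070 (+) and chr3:90695722-90695971 (-). Those of Ngp, Camp and Ltf lie at chr9:110419558-110419807 (+), chr9:109849457-109849706 (-) and chr9:111019042-111019291 (+), and that of Cd177 at chr7:24760312-24760561 (-). The C/EBP-type letters stood upstream of 8 of the 10 members, the exceptions being Camp and Cxcr2, and in 36.9% of all 32841 annotated promoters. The STAT-type letters TTCNNNGAA, searched on both strands because the study concerns STAT3, stood upstream of 0 members and in 7.02% of all promoters. A match describes letters only, and the lack of one says only that these letters are not in the 250 bases. S100a8 and S100a9 are neighbours on chromosome 3, with 22595 bp between the genes, and Camp, Ngp and Ltf lie on chromosome 9, where Camp and Ngp are 570351 bp apart and Ngp and Ltf 596279 bp. No member overlaps another annotated gene.

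The libraries held between 36550775 and 38147320 counts, so 3 counts, taken as the floor, equal 0.0716 to 0.0846 CPM (a gene's counts as a share of its library's, here with TMM factors that correct for library composition). Levels below are CPM within a gene, and levels of different genes are compared as FPKM, which divides by gene length. Where genes are said to lead a list, the order is that of mean CPM, which also depends on gene length. Npm1, the gene that separates the groups, did not follow its label: it was at 142, 380.2 and 381 CPM in wt libraries 1 to 3 and at 441, 499 and 343 CPM in the libraries labelled knockdown. All directions below are therefore those between labels. Of the markers used for the sort, Ptprc (CD45) was at 928 to 1393 CPM, Itgam (CD11b) at 1492 to 2975 CPM and Adgre1 (F4/80) at 127 to 302 CPM over the 6 libraries. The labels do not say that replicates came from separate animals, and a legend of the study gives fewer mice per group for its RNA-seq than the 3 libraries here. Some libraries may therefore share an animal: n = 3 counts libraries, p-values measure the spread between them, which may be technical, and would then be too small.

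Of the 10 members, 9 passed the filter on low counts and were tested, and Camp did not pass. All 9 estimates were below 0, lower in the libraries labelled knockdown, against 47.9% of the 13884 genes tested. Not one reached an adjusted p under 0.05 in edgeR's quasi-likelihood test (0.328 to 0.592), nor did any of all the genes tested, so the background share of genes called lower is 0%. At an unadjusted p under 0.05, 4 members were lower (Cd177, Retnlg, Cxcr2 and Ltf), beside 8.31% of all genes. The 3 wt and 3 labelled knockdown values did not overlap for 4 members, all lower in the latter (Cd177, Retnlg, Cxcr2 and Ly6g), beside 12.6% of all genes. The median log2 fold change of the 9 was -0.78, and that of all genes 0.02. The members' estimates are correlated with each other, so these counts are not 9 independent observations.

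Summed over the 10 genes, the level was 1475, 1511 and 1709 CPM in wt libraries 1 to 3 and 1337, 651 and 1287 CPM in those labelled knockdown. The groups did not overlap on this scale. As a share of all counts, without TMM factors, the sum was 0.138%, 0.141% and 0.168% in wt libraries 1 to 3. Those labelled knockdown were then at 0.140%, 0.0747% and 0.125%, and the groups overlapped. Labelled knockdown library 2 stood well below the rest of its group on both scales. It was the lowest of the 6 libraries for 9 of the 10 members, while all 10 were highest in a wt library, 6 of them in wt library 3. S100a8 and S100a9 made up 71.7% to 82.3% of the members' counts, so the sum is mainly theirs.

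**Figure D1:**
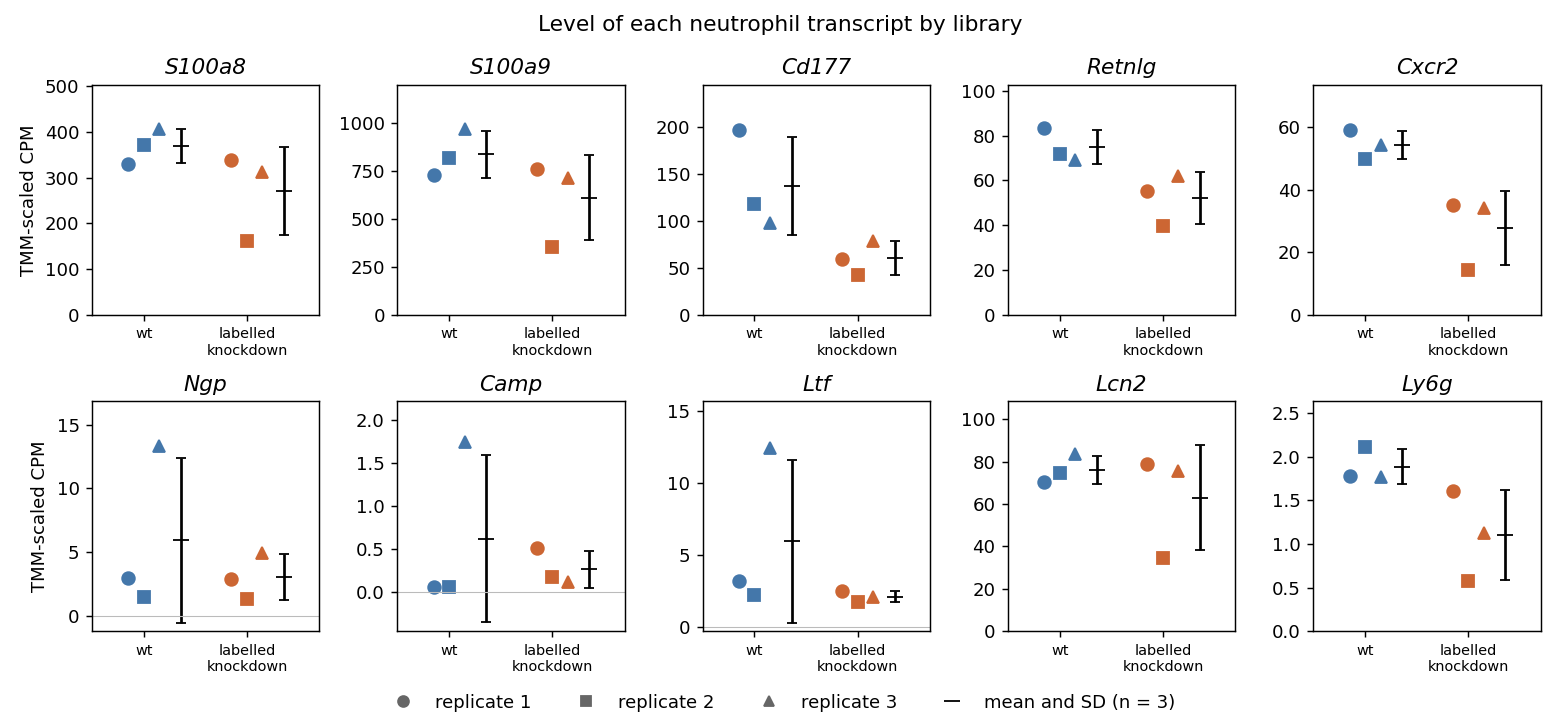
TMM-scaled CPM of the 10 transcripts in each library (y axis, linear, one scale per gene), with wt in blue and labelled knockdown in orange, marker shape for the replicate, and the mean with its SD (n = 3) at the right of each group. Cd177, Retnlg, Cxcr2 and Ly6g show groups that do not overlap, labelled knockdown library 2 is lowest for 9 genes, and Ngp, Camp and Ltf have a single high point in wt library 3.

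S100a8 and S100a9 encode the subunits of calprotectin, a calcium- and zinc-binding protein that signals through TLR4 and RAGE when released. They were the most abundant members per length: S100a9 had a mean FPKM of 1367 (rank 30 of 22377 genes) and S100a8 one of 806 (rank 96). S100a9 was at 728, 819 and 969.7 CPM in the wt libraries and at 762, 356 and 715 CPM in those labelled knockdown. S100a8 was at 330.4, 371 and 406 CPM and at 339, 160.5 and 313 CPM. In both genes 2 of the 3 labelled knockdown libraries lay near or within the wt range and library 2 lay far below it, so the groups overlapped. The log2 fold changes were -0.46 (SE 0.28, adjusted p = 0.394 by edgeR) for S100a9 and -0.45 (SE 0.27, adjusted p = 0.385) for S100a8. Without labelled knockdown library 2 both came to -0.19.

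The ratio of S100a8 to S100a9 CPM hardly moved: it was 0.454, 0.453 and 0.419 in the wt libraries and 0.444, 0.451 and 0.438 in those labelled knockdown. The ratio thus spanned 1.08-fold while the level of S100a9 spanned 2.72-fold. On the FPKM scale it lay between 0.559 and 0.607. This and the other ratios below were chosen after the values were seen and were given no test.

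Lcn2 encodes lipocalin 2, which binds bacterial siderophores. It is a secondary granule protein that macrophages and epithelial cells can also make. It was at 70.2, 74.4 and 83.4 CPM in the wt libraries and at 79.0, 34.8 and 75.4 CPM in those labelled knockdown. Again only library 2 of the labelled knockdown group stood low, and the log2 fold change was -0.27 (SE 0.29, adjusted p = 0.592 by edgeR), or 0.01 without that library. Per 1000 CPM of S100a9, Lcn2 stood at 96.5, 90.8 and 86.0 in wt and at 104, 97.7 and 105 in the labelled knockdown libraries. This was a narrow range whose groups did not overlap, with the labelled knockdown values higher. S100a9 itself had a lower estimate by label (log2 fold change -0.46, median of all genes 0.02). The share of all genes standing apart on this scale was not determined.

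The other secondary granule members were scarce. Ltf encodes lactoferrin, an iron-binding protein, and had 113, 79 and 465 counts in the wt libraries and 99, 72 and 77 in those labelled knockdown. On the CPM scale that is 3.18, 2.23 and 12.4 against 2.52, 1.72 and 2.11. Wt library 3 alone was high, and the groups overlapped. The log2 fold change of -1.49 (SE 0.63, adjusted p = 0.328 by edgeR) was the lowest of the members and came to -0.37 without wt library 3.

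Ngp, neutrophilic granule protein, a cystatin-like secondary granule protein, had 107, 53 and 498 counts in wt and 115, 57 and 181 in the labelled knockdown libraries. The high value again belonged to wt library 3, with labelled knockdown library 3 next. Its log2 fold change of -0.95 (SE 0.81, adjusted p = 0.502 by edgeR) turned to 0.44 without wt library 3. Camp, which encodes the cathelicidin antimicrobial peptide, had 2, 2 and 65 counts in wt and 20, 7 and 4 in the labelled knockdown libraries. Its values in wt libraries 1 and 2 were under the floor of 3 counts, no fold is given, and the two-sided exact permutation test of its CPM gave p = 1, where 0.1 is the smallest p that 3 against 3 allows. The library high for all 3 genes was thus wt library 3, which was not set apart in the same way for Lcn2, Cd177 or Cxcr2.

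Among the surface proteins, Cd177 encodes a GPI-anchored glycoprotein that binds PECAM1 on endothelium. It was at 196, 118 and 97.4 CPM in the wt libraries and at 59.4, 42.7 and 78.6 CPM in those labelled knockdown. The groups did not overlap, and wt library 1 was far above the rest. The means were 137 ± 52.1 and 60.2 ± 18.0 CPM (SD, n = 3), a ratio of 0.438, and the log2 fold change was -1.19 (SE 0.31) with an adjusted p of 0.328 by edgeR. It kept its sign when any single library was left out, and was nearest to 0 without wt library 1, at -0.84.

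Cxcr2 encodes the receptor for CXCL1, CXCL2 and related chemokines, which draws neutrophils into tissue. It was at 58.9, 49.9 and 54.1 CPM in wt and at 34.9, 14.2 and 34.2 CPM in the labelled knockdown libraries. All 3 labelled knockdown values lay below the wt values, which were close together. The means were 54.3 ± 4.54 and 27.8 ± 11.7 CPM (SD, n = 3), a ratio of 0.512, and the log2 fold change was -0.97 (SE 0.32, adjusted p = 0.328 by edgeR). It was -0.66 without labelled knockdown library 2.

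Ly6g encodes the GPI-anchored antigen by which mouse neutrophils are usually sorted. It had only 63, 75 and 66 counts in wt and 63, 24 and 41 in the labelled knockdown libraries, or 1.77, 2.11 and 1.76 CPM against 1.60, 0.573 and 1.12. The CPM values did not overlap, although labelled knockdown library 1 lay just under the wt values. On the deposited FPKM the groups did overlap, with labelled knockdown library 1 at 1.80 and wt library 1 at 1.76. The log2 fold change was -0.78 (SE 0.43, adjusted p = 0.361 by edgeR), or -0.47 without labelled knockdown library 2 and -1.15 without labelled knockdown library 1. Ly6 genes resemble each other in sequence, and how reads matching several of them were counted is not given in the sources used here, so the low counts are uncertain.

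Retnlg, a resistin-like secreted protein made by neutrophils and their precursors, was at 83.3, 71.9 and 69.0 CPM in wt and at 55.2, 39.5 and 62.0 CPM in the labelled knockdown libraries. The groups did not overlap. The means were 74.7 ± 7.59 and 52.2 ± 11.5 CPM (SD, n = 3), a ratio of 0.699, and the log2 fold change was -0.52 (SE 0.18, adjusted p = 0.328 by edgeR).

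Another count test on the same libraries, DESeq2, also called 0 members, where it called 0.168% of all genes lower, and came nearest for Cd177 (adjusted p = 0.0582) and Cxcr2 (adjusted p = 0.142). Without wt library 1 and labelled knockdown library 3, an alternative chosen after the data were examined, DESeq2 called 2 members lower, Cd177 with an adjusted p of 4.68e-05 and a log2 fold change of -1.12 and Retnlg with 0.0325 and -0.61, beside 5.91% of all genes. In edgeR the same 4 libraries gave Cd177 an adjusted p of 0.101. These 4 libraries leave 2 per group.

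**Figure D2:**
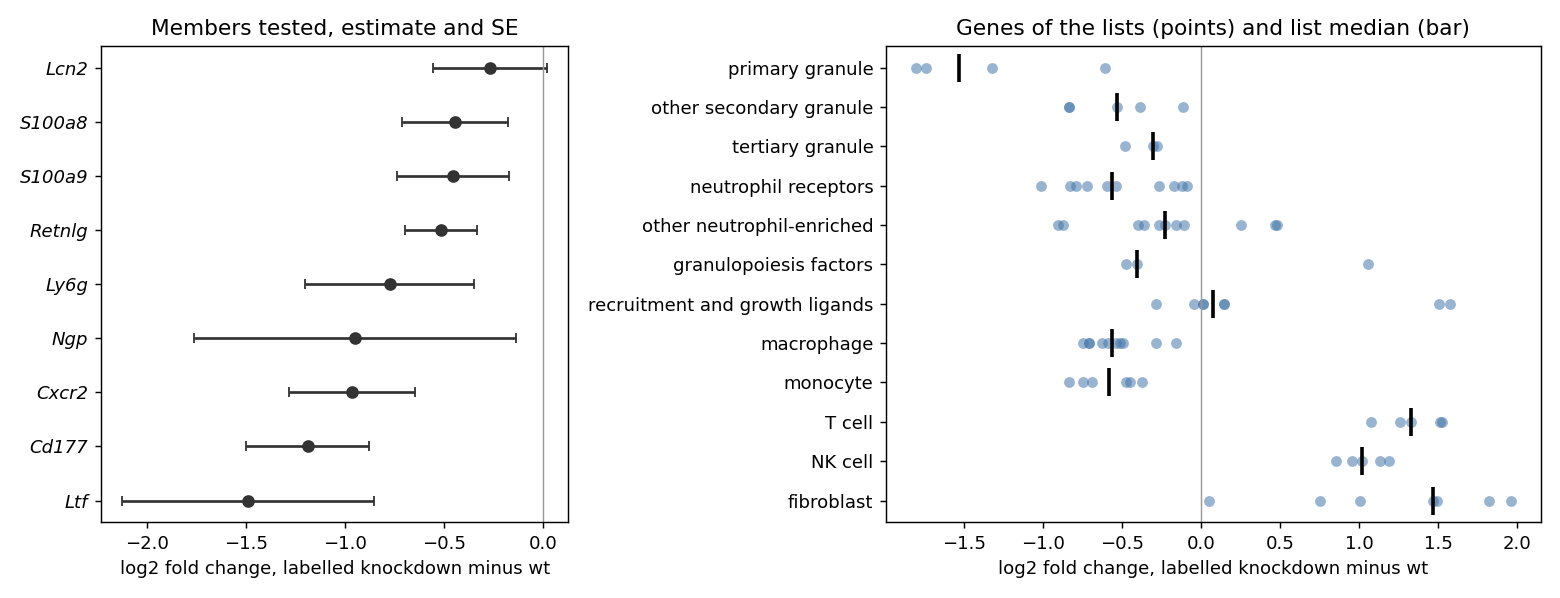
Left, log2 fold change of the 9 members tested (x axis, labelled knockdown minus wt) with its SE from edgeR; right, the same measure for the genes of 12 lists, 1 point per gene and a bar at the list median. All 9 members lie below 0, as do all tested genes of the granule, receptor, macrophage and monocyte lists, while the tested T cell, NK cell and fibroblast markers lie above 0.

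Some members followed each other over the 6 libraries. Pearson's r of the log2 CPM was 0.997 between S100a8 and S100a9 and 0.976 between S100a8 and Lcn2. Retnlg and Cxcr2 were at 0.970 and Cd177 and Retnlg at 0.955, while Ngp and Ltf were at 0.86 and Camp and Ltf at 0.78. These sets were not separate: Cxcr2 was at 0.945 with Ly6g, 0.932 with S100a8 and 0.916 with S100a9, above its 0.873 with Cd177, and Ly6g was at 0.942 with S100a8. The lowest was -0.30, between Cd177 and Camp. With n = 6 these values describe the libraries only: the points share library composition and the difference between labels, and labelled knockdown library 2 weighs on most pairs.

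**Figure D3:**
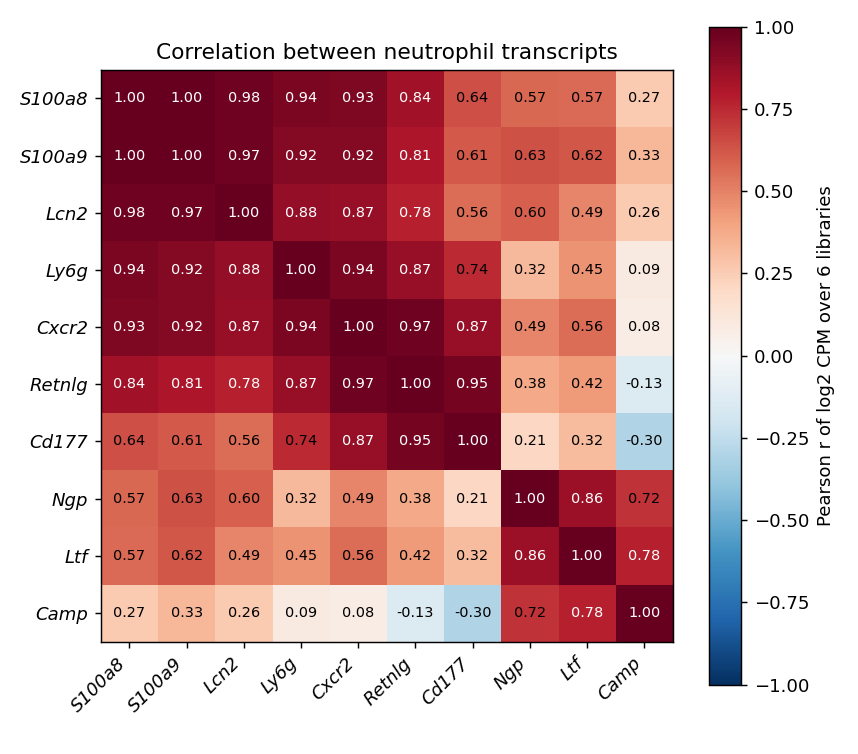
Pearson's r of log2 CPM between each pair of the 10 transcripts over the 6 libraries, with the colour scale running from -1 to 1. S100a8, S100a9, Lcn2, Ly6g and Cxcr2 have pairwise values of 0.87 or more, Cd177 is closest to Retnlg, and Ngp, Ltf and Camp are closest to each other.

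Genes outside the lists whose log2 CPM most resembled the mean of the tested members were Adgrg3 (r = 0.992, 6 libraries), Rcbtb2 (r = 0.992), 3110040N11Rik (r = 0.988), Gm36161 (r = 0.987), G3bp2 (r = 0.978) and Gpr141 (r = 0.974). Adgrg3, an adhesion G protein-coupled receptor, had means of 12.4 ± 1.39 CPM in wt and 9.21 ± 2.40 CPM in the labelled knockdown libraries (SD, n = 3). G3bp2, a stress granule protein, ranged only from 111 to 126 CPM, so a high r does not mean a large difference in level.

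Other neutrophil genes were grouped by the role of their products, and 0 of them passed edgeR's test at an adjusted p of 0.05. Of the 6 primary granule genes 4 were tested, all 4 with estimates below 0 (median -1.53), at very low levels: Prtn3 (proteinase 3) was at 3.97 to 9.14 CPM in wt and 2.05 to 5.31 CPM in the labelled knockdown libraries, Ctsg (cathepsin G) at 0.733 to 2.11 and 0.119 to 0.629 CPM, and Mpo (myeloperoxidase) at 0.366 to 0.855 and 0.127 to 0.274 CPM. The 5 other secondary granule genes were all below 0 (median -0.53). Without wt library 1, 3 of 5 were below 0 (median -0.52), and without labelled knockdown library 2, 4 of 5 (median -0.39). Chil3, a chitinase-like protein that monocytes and macrophages also express, was at 2369, 1497 and 1252 CPM in wt and 889, 628 and 1354 CPM in the labelled knockdown libraries. Hp (haptoglobin) had a log2 fold change of -0.84 and Mmp8 (neutrophil collagenase) one of -0.53, both with an adjusted p of 0.328 by edgeR.

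The 3 tertiary granule genes were below 0 as well (median -0.30). Adam8, a membrane protease also made by macrophages, was at 1588 to 1883 CPM in wt and 1019 to 1558 CPM in the labelled knockdown libraries. Mmp9 (gelatinase B) overlapped between groups, at 113 to 153 against 64.6 to 155 CPM, and so did Mmp25, at 21.4 to 42.1 against 19.9 to 28.0 CPM.

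All 10 further receptors known from neutrophils had estimates below 0, with a median of -0.56. Of these, 4 had an unadjusted p under 0.05, beside 8.31% of all genes that were lower at that p. Without labelled knockdown library 2 the median was -0.34, without wt library 2 it was -0.43, and in each case 8 of 10 were below 0. The 3 with the highest CPM, Clec4d, Trem1 and Il1r2, had small estimates of -0.17, -0.27 and -0.12 with overlapping groups. Csf3r (the G-CSF receptor), Cxcr1 and Fpr2 (a formyl peptide receptor) were among those with the lower p and were named after their values were seen. Csf3r was at 527, 379 and 394 CPM in wt and at 285, 160 and 288 CPM in the labelled knockdown libraries. Cxcr1, the sister receptor of Cxcr2, was at 3.23, 3.07 and 2.19 against 1.83, 0.931 and 1.45 CPM. Among the 11 other neutrophil-enriched genes tested, 8 estimates were below 0 and 3 above (median -0.23). Their leading genes were Slfn4 (-0.11), Hdc, the histamine-forming enzyme (-0.36), and G0s2, a lipase inhibitor (-0.90).

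With all 6 libraries the ligands did not share that pattern. Of 8 chemokine and growth factor genes that recruit or sustain neutrophils, 2 had estimates below 0 and 6 above, with a median of 0.08. That contrast depended on single libraries: without wt library 1, 6 of 8 were below 0 (median -0.17). Without wt library 2, 0 of 8 were below 0 (median 0.48). Cxcl2, a ligand of CXCR2, was at 5371, 7708 and 6876 CPM in wt and at 6057, 4598 and 8740 CPM in the labelled knockdown libraries, with a log2 fold change of -0.04. Cxcl3 came to 0.01 and Cxcl1 to 0.15. Csf2, which encodes GM-CSF and was named after its values were seen, had the only unadjusted p under 0.05 of the list and was higher, from 0.197 to 0.451 CPM in wt to 0.684 to 1.07 CPM, with an adjusted p of 0.328 by edgeR.

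Of the 3 transcription factors of granulocyte development, Cebpa (-0.40) and Cebpe (-0.47) had estimates below 0 and Gfi1 (1.06) above, with overlapping groups in each. Receptors and partners of the members' proteins gave 5 of 6 estimates below 0 (median -0.34). Lrp1, an endocytic receptor that binds lactoferrin, was at 2121, 1757 and 1640 CPM in wt and at 1025, 906 and 1306 CPM in the labelled knockdown libraries. Bsg (basigin, a receptor for S100A9) had a log2 fold change of -0.18 and Tlr4 one of -0.36.

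Of the members' relatives by family, the 5 S100 genes tested had a median of -0.07, led by S100a4 (-0.25), S100a11 (-0.21) and S100a10 (-0.01), all with overlapping groups. Of the resistin family, Retnla (0.11) and Retn (-0.31) were tested, both at low levels, and Retnlb had at most 1 count in a library. The Ly6 relatives gave 4 of 5 estimates below 0 (median -0.47), with Ly6e at -0.47, Ly6c2 at -0.75 and Ly6a at -0.32. The estimate above 0 was that of Ly6c1, at 1.32, 13.7 and 8.50 CPM in wt and 20.9, 17.7 and 11.8 CPM in the labelled knockdown libraries (1.10, adjusted p = 0.394 by edgeR), named after its values were seen.

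Among markers of other cells in or near the sort, 0 passed edgeR's test at an adjusted p of 0.05, but several lists had estimates of one sign, and their part in the members' differences was not tested. All 10 macrophage markers had estimates below 0 (median -0.56). Of these, 7 had an unadjusted p under 0.05, beside 8.31% of all genes that were lower at that p. Without labelled knockdown library 2 the median came to -0.42, with 9 of 10 estimates below 0. The summed level of the 10 markers was 3502 to 4249 CPM in wt and 1927 to 3168 CPM in the labelled knockdown libraries. Csf1r, Cd68 and Apoe led the list at -0.74, -0.54 and -0.71. The 6 monocyte markers, led by Fn1 (-0.48), Vcan (-0.37) and Chil3 (-0.83), were all below 0 (median -0.58), with sums of 8900 to 11351 against 4817 to 8684 CPM. Chil3 is counted among the other secondary granule genes as well. The 5 T cell markers tested were all above 0 (median 1.33, sums 12.9 to 65.3 against 53.1 to 142 CPM, led by Cd8a, Cd3g and Cd4). The 5 NK cell markers were also all above 0 (median 1.02, sums 17.9 to 33.9 against 28.5 to 93.7 CPM, led by Gzma, Klrb1c and Eomes), as were the 7 fibroblast markers (median 1.47, sums 22.7 to 471 against 342 to 682 CPM, led by Col3a1, Pdgfra and Dcn). The T cell, NK cell and fibroblast sums overlapped between groups. Wt library 1 stood apart in the fibroblast sum, at 22.7 CPM against 272 to 682 CPM in the other 5 libraries, and without it the fibroblast median came to 0.93, with 6 of 7 estimates above 0. It also had the lowest Npm1. Without labelled knockdown library 2 the T cell median came to 0.72 and the NK cell median to 0.25. Labelled knockdown library 2, lowest for 9 members, had the highest T cell and NK cell sums and the lowest macrophage and monocyte sums.

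The sums of the remaining marker lists overlapped between groups as well. These were dendritic cells (median -0.03, led by Ccr7, Itgax and Cd209a), B cells (0.00, with Cd79a and Pax5 among the markers), endothelium (-0.32, led by Pecam1, Vwf and Cdh5) and epithelial or carcinoma cells (0.17, led by Krt8, Cdh1 and Krt18). Eosinophil markers (-0.56) were led by Ear2, Siglecf and Ccr3, erythroid ones (-0.75) by Hbb-bs, Hba-a1 and Hba-a2. Of 6 mast cell and basophil markers, led by Cpa3, Mcpt8 and Mcpt4, 0 passed the filter, and their sum stayed between 0.0844 and 1.44 CPM. No marker on any list was at 0 in all 6 libraries.

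Set against the summed macrophage markers, the members no longer separated by label as a whole: per 1000 CPM of the 10 macrophage markers their sum was 347, 417 and 488 in wt and 560.4, 338 and 406 in the labelled knockdown libraries. Retnlg was nearly even on this scale, at 19.6, 19.8 and 19.7 in wt and 23.1, 20.5 and 19.6 in the labelled knockdown libraries. Cxcr2 overlapped, at 13.9, 13.8 and 15.5 against 14.6, 7.40 and 10.8. Cd177 alone of the 10 stayed apart, at 46.2, 32.7 and 27.8 against 24.9, 22.1 and 24.8. On this scale 0.353% of the 13884 genes tested stayed apart and lower, against 12.6% on the CPM scale. The loss of separation was therefore not limited to the members. Relative to S100a9, by contrast, Cxcr2 kept its groups apart at 81.0, 60.9 and 55.8 against 45.8, 40.0 and 47.8 per 1000, whereas Cd177 (270, 144 and 100 against 77.9, 120 and 110) and Retnlg (115, 87.7 and 71.2 against 72.4, 111 and 86.6) overlapped. Which members stood apart therefore depended on the reference, and the share of all genes apart relative to S100a9 was not determined.

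**Figure D4:**
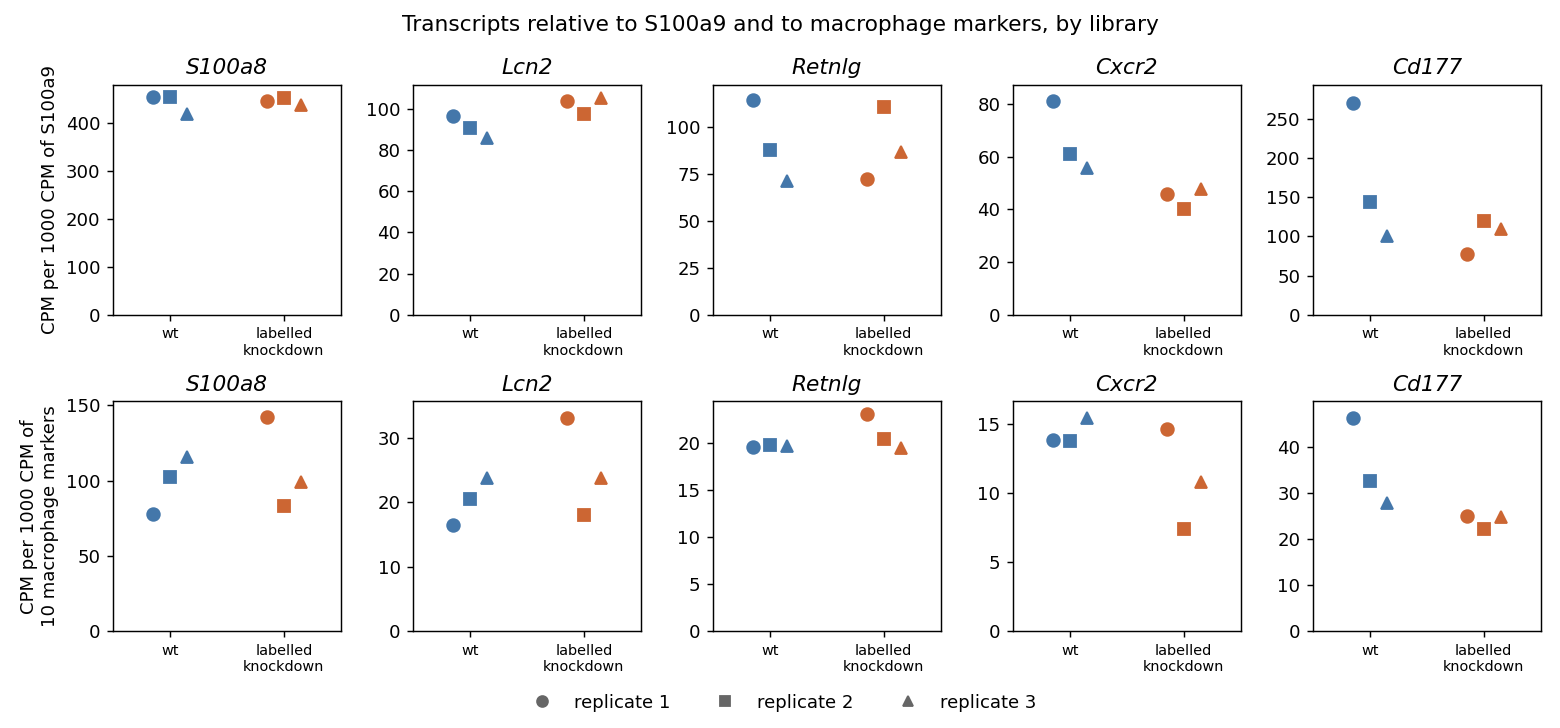
Level of 5 members per 1000 CPM of S100a9 (top row, y axis) and per 1000 CPM of the 10 summed macrophage markers (bottom row, y axis), 1 point per library with wt in blue, labelled knockdown in orange and marker shape for the replicate. S100a8 is nearly constant against S100a9, Cxcr2 is separated only in the top row and Cd177 only in the bottom row.

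**Figure D5:**
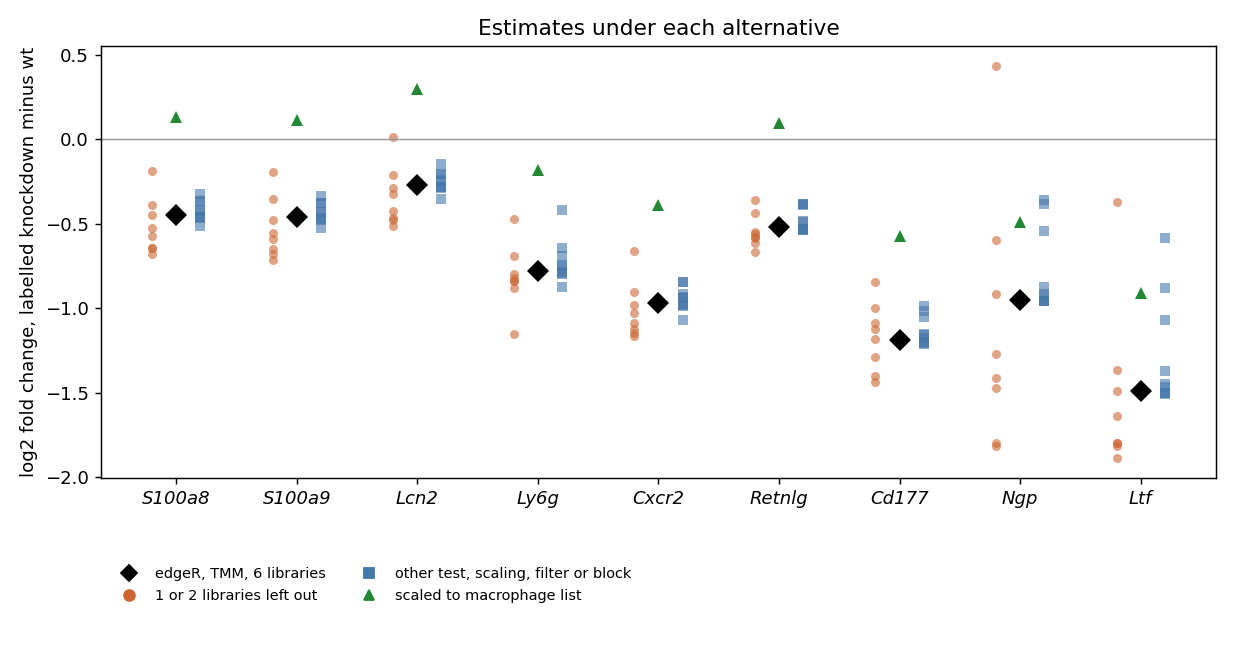
Log2 fold change (y axis, labelled knockdown minus wt) of the 9 tested members under edgeR with TMM scaling (black) and under each alternative, grouped by kind in colour. Cd177, Cxcr2, Ltf and Ly6g stay below 0 throughout, Ngp rises to 0.44 without wt library 3, Lcn2 to 0.01 without labelled knockdown library 2, and S100a8, S100a9, Retnlg and Lcn2 lie above 0 when scaled to the macrophage list.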

How the data were processed

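Gene expression was measured by RNA-seq in 6 libraries, grouped by the submitters' labels into 3 wt and 3 knockdown. Raw counts of each gene and FPKM values were deposited by the authors. Per the labels the build was mm10, and the aligner, counter and annotation are not given in the sources used here. The deposited FPKM equalled counts divided by a gene length and the library total in 10344 of 10344 genes checked (tolerance 1e-06). The descriptive columns of the table were not used.

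Counts were filtered (filterByExpr), scaled by TMM and tested in edgeR 4.0.16 (R 4.3.3) with the quasi-likelihood test and Benjamini-Hochberg adjustment over 13884 genes. Alternatives used DESeq2 1.42.0, limma 3.58.1 on log2(FPKM + 1) and log2(FPKM + 0.1), other scalings and filters, a replicate block and left-out libraries. The fits were tested on simulated data. Per gene, 6 libraries of about equal depth limit precision, and floors cover counting error only. log2 CPM for correlations used a prior count of 2.

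Genes named were all members, Npm1 and the sort markers, the 3 genes with the highest mean CPM of each other list, and the 6 most correlated genes outside the lists. Some listed genes are not reported here, and Csf3r, Cxcr1, Fpr2, Csf2, Ly6c1 and Ccrl2 were named outside this rule after their values were seen. Members and lists were chosen with earlier results of these data known. Same-numbered libraries did not deviate together (r = -0.24, 0.06 and -0.34). Of the listed genes, BC100530, Gm5483, Il1f9, Epx, Ear1 and Trac did not match a symbol in the table.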

Additional observations from a re-analysis of the deposited data

How the results depend on the processing

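Of 162 estimates (9 tested members under 18 alternatives), 156 were below 0. These estimates are not independent, because the alternatives reuse the same 6 libraries or some of them and the members are correlated. The share of all genes below 0 under these alternatives was not determined. edgeR called 0 members and 0 of all genes in each of its alternatives, leaving out single libraries included, and so did both limma fits on all 6 libraries. At an unadjusted p under 0.05 edgeR had 2112 genes. DESeq2 called 36 of all genes and 0 members. Without wt replicate 1 and knockdown replicate 3 it called 1266 genes and 2 members, Cd177 (-1.12) and Retnlg (-0.61), and the cause was not tested. When libraries were scaled to the macrophage list, an alternative added once values were known, this moved the median of all genes to 0.68 and that of the members to -0.18. S100a8 (0.13), S100a9 (0.11), Retnlg (0.10) and Lcn2 (0.30) then turned above 0, yet stayed below that median of all genes, and the number of members whose groups did not overlap went from 4 to 1, while the share over all genes went from 12.6% to 0.353%. Library totals without TMM moved the median of all genes to 0.17 and limma on log2(FPKM + 0.1) to 0.16, and the non-overlapping members were 3 with library totals (6.87% of all genes) and with the deposited FPKM (6.88%). Leaving out single libraries, that number ranged from 4 to 7, and the share over all genes from 14.6% to 22.9%. The number was 7 without knockdown replicate 1 (14.6% of all genes) and 6 without wt replicate 1 (15.2%). Smaller groups overlap less by construction. The members' median ranged from -0.92 without knockdown replicate 1 to -0.39 without wt replicate 3. Estimates without wt replicate 1 and knockdown replicate 3 in edgeR were -1.80 for Ngp and -0.48 for Lcn2. Ngp turned to 0.44 without wt replicate 3 and Lcn2 to 0.015 without knockdown replicate 2. With the replicate block, 0 genes and 0 members were called, 1606 genes had an unadjusted p under 0.05 and the members' median was -0.54, and the numbers were not shown to pair the libraries. Ngp, Camp, Ltf and Ly6g rest on few counts.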

Other observations

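Ltf lies 12067 bp from Ccrl2 on chromosome 9. Ccrl2, a chemokine receptor-like protein of macrophages and neutrophils that the study follows, was at 831, 1494 and 1162 CPM in wt and at 665, 471 and 783 CPM in the labelled knockdown libraries, with a log2 fold change of -0.86 (adjusted p = 0.33 by edgeR). Its groups did not overlap. Ltf was highest in wt library 3 and Ccrl2 in wt library 2, so these nearby genes did not share their highest library.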
